A study of Homo sapiens with 4 samples.

Results

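The genes described here are the 8 human genes that encode the auxiliary beta and alpha2delta subunits of voltage-gated calcium channels: CACNB1, CACNB2, CACNB3 and CACNB4, and CACNA2D1, CACNA2D2, CACNA2D3 and CACNA2D4. They were chosen by name, as 8 of the 20163 protein-coding genes of GENCODE release 44 on hg19. A called NRSF/REST site was assigned to one of them when it lay in the gene or within 10 kb of either end. This gave 7 of the 5323 sites of the basal SF-1 dosage and 5 of the 5059 sites of the increased SF-1 dosage.

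The data are ChIP-seq site lists for NRSF/REST from H295R/TR SF-1 cells, a derivative of the human adrenocortical tumor line H295R in which doxycycline raises the amount of the nuclear receptor SF-1. The basal group is 1 library from cells without doxycycline, and the increased group is 1 library from cells given doxycycline for 3 days (at 1 mg/mL by the labels and 1 µg/ml by the methods). Both libraries were made with an antibody to NRSF/REST, and both carry the inducible SF-1 construct, so by their labels the groups differ in doxycycline only. A further 2 input DNA libraries, whose dosage the labels do not give, were not analysed here. With 1 library per dosage there is no replicate spread, no test between dosages was made, and the SF-1 dosage and the individual library cannot be told apart in any difference below. The lists hold no read counts, so the depth is unknown. Every site carries the same score of 1000, and the order number, in which the lowest number comes at the head of the list, is used as a rank only. The median width was 299 bp in both lists, and order number fell with width across sites (Spearman's rho -0.947 at basal and -0.951 at increased dosage, given as a description).

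Voltage-gated calcium channels consist of a pore-forming alpha1 subunit and auxiliary subunits. The beta subunit sits on the cytoplasmic side, where it binds alpha1, carries it to the membrane and tunes its gating, while alpha2delta is a glycosylated protein on the outer face that raises the number of channels at the surface and takes part in synapse organisation. NRSF/REST is a zinc finger repressor that binds a DNA element called RE1 and keeps neuronal genes low outside neurons, and many genes of neuronal ion channels carry such elements.

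The 4 loci whose called sites hold the RE1 consensus are shown, since they are the members' only matches to it inside a site. The consensus was searched as the parts CTGTCC and GGTGCTG with 2 free bases between them, in either direction, and up to 2 of its 13 fixed bases were allowed to differ. The sequences are the hg19 reference in the direction of the consensus, 5′ to 3′, and capitals mark its 15 bases.
CACNA2D2 locus 1, chr3:50442870-50442884, minus strand: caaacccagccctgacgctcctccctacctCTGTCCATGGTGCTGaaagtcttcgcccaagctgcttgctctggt
CACNA2D2 locus 2, chr3:50497406-50497420, minus strand: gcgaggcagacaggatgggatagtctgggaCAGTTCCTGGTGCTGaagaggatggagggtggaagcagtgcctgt
CACNA2D3 locus 2, chr3:54222373-54222387, minus strand: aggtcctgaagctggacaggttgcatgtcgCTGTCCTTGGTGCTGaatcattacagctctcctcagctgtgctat
CACNA2D4 locus 1, chr12:1940417-1940431, minus strand: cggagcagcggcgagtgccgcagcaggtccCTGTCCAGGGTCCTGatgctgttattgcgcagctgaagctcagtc
The matches at CACNA2D2 locus 1 and CACNA2D3 locus 2 have no mismatch over the 13 fixed bases, and they are called exact in that sense only. Bases outside the 15 were not part of the search. With positions counted from 1 at the first base of the CTGTCC part, and the consensus base written before the base found, the match at CACNA2D4 carries G12C and that at CACNA2D2 locus 2 carries T2A and C5T. The 2 exact elements share 14 of the 15 bases, differing at a free base between the parts, and 17 of 21 bases when the 4 bases before and the 2 bases after are added. All 4 matches are followed directly by an A. The exact element of CACNA2D2 lies on the strand of its gene and that of CACNA2D3 on the opposite strand to its gene.

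Most of the sites lay at alpha2delta genes. At the basal dosage 0 of 4 beta genes and 3 of 4 alpha2delta genes had a site, and at the increased dosage 1 of 4 and 3 of 4 did. Among all protein-coding genes the share with a site under the same rule was 13.9% at the basal and 13.6% at the increased dosage. CACNA2D2, CACNA2D3 and CACNA2D4 had sites at both dosages, as did 10.5% of all protein-coding genes. The members are long, however: 6 of the 8 exceed 100 kb, and among protein-coding genes of at least 100 kb the share with a site was 31.2% and 30.6%. The alpha2delta genes together cover 1.72 Mb and the beta genes 0.709 Mb.

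**Figure D1:**
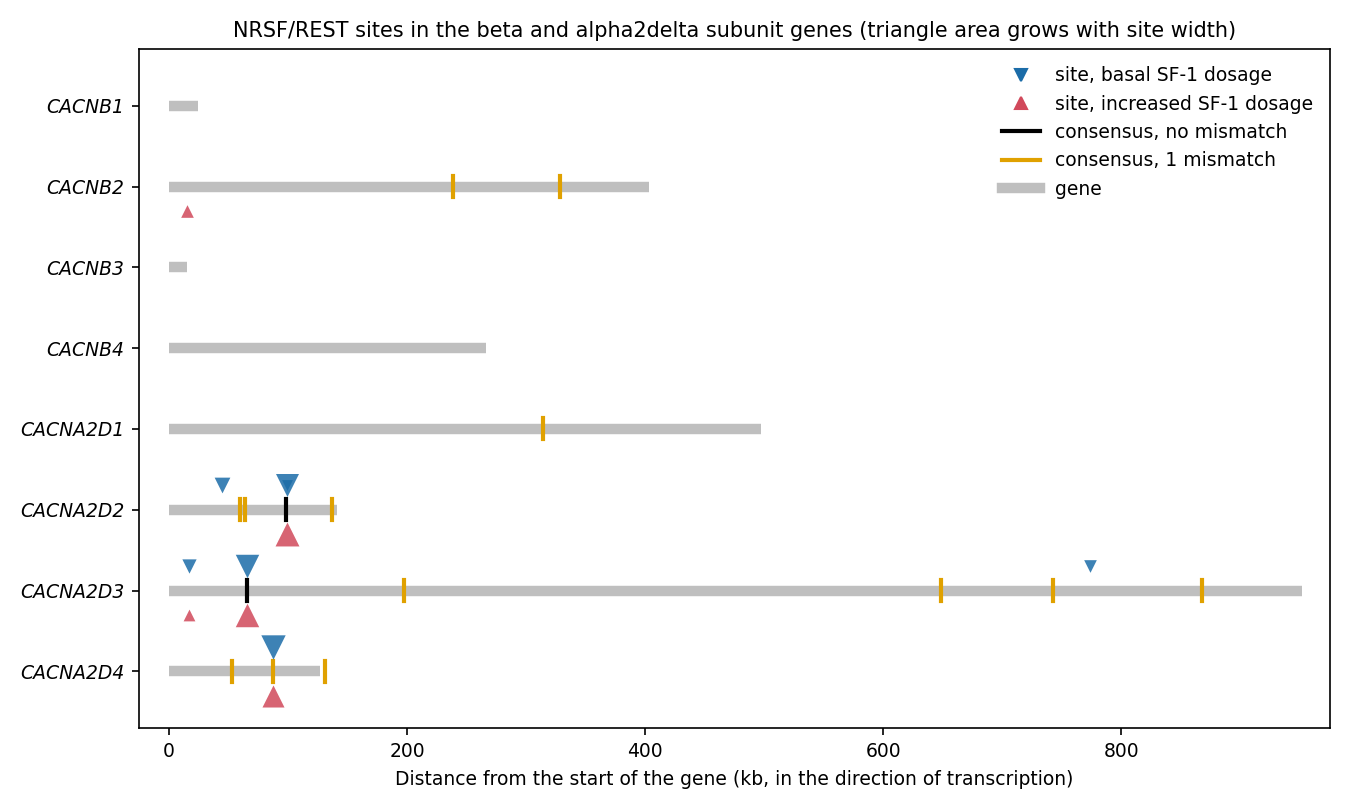
Map of the 8 genes (grey bars, distance in kb from the start of the gene along transcription). Triangles above the bar are basal sites and triangles below it increased sites, with area growing with width; black ticks are consensus matches without mismatch and orange ticks matches with 1 mismatch. Both black ticks carry a large site at both dosages, and 1 of the 13 orange ticks does, the middle one of CACNA2D4.

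The beta subunit genes were almost bare of called sites. CACNB1 (chr17:37329706-37353955, minus strand, 24.2 kb), whose product is the beta subunit of skeletal muscle, had 0 sites at both dosages. CACNB3 (chr12:49207577-49222724, plus strand, 15.1 kb) had 0 at both, and CACNB4 (chr2:152689285-152955681, minus strand, 266 kb), a beta subunit of brain, had 0 at both. Short genes rarely hold a site: of the 9631 protein-coding genes under 25 kb, 8.58% had a basal and 8.31% an increased site, so 0 sites at CACNB1 and CACNB3 is what most genes of their length showed. Of the 748 genes between 250 and 500 kb, the length class of CACNB2, CACNB4 and CACNA2D1, 42.0% had a basal and 40.2% an increased site, and 49.6% had one at either dosage.

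CACNB2 (chr10:18429353-18832486, plus strand, 403 kb), the main beta subunit of heart muscle, held the only site of its family. It was 0 sites at the basal dosage and 1 site at the increased dosage, chr10:18444251-18444499, in intron 2, with its midpoint 15 kb from the start of the canonical transcript. The site was 249 bp wide and held order number 3483 of 5059, and 2786 sites of the list were wider. It lay below the median width and held neither the consensus nor the parts of it at another distance nor an SF-1 match, and its GC content was 36.5%, the lowest of the 12 sites. All of its 32-base words occur once in the genome.

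In the alpha2delta family all genes but CACNA2D1 held a site. With 4 genes in each family, and lengths that differ between them, this is a count and not a family trait. CACNA2D1 (chr7:81575760-82073272, minus strand, 498 kb), the main target of the gabapentinoid drugs, had 0 sites at both dosages although it is longer than 98.4% of protein-coding genes. The other three genes each held a site of about 1000 bp or more at both dosages, and these are described in turn.

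CACNA2D2 (chr3:50400044-50541675, minus strand, 142 kb), an alpha2delta subunit of the cerebellum and other brain regions, had 3 basal sites and 1 increased site. At locus 1, in intron 3 and 98.4 kb downstream of the canonical start, the increased library gave a single site of 1199 bp, chr3:50442051-50443249, order number 211. The basal library gave 2 neighbouring sites over the same stretch, 149 bp at chr3:50441951-50442099 (order number 3845) and 1099 bp at chr3:50442151-50443249 (order number 375). The called stretches of both dosages coincided over 1148 bp, and the edge of higher coordinate fell on the same base. The increased site was wider than 98.1% of its list, with 77 sites wider, and the main basal site was wider than 97% of its list. The exact consensus lay 177 bp from the midpoint of the main basal site and 227 bp from that of the increased site. The basal count of 3 thus includes a narrow site right beside a wide one, and merging sites within 500 bp gave 2 basal sites at CACNA2D2.

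Locus 2 of CACNA2D2 was called at the basal dosage only. It was 449 bp wide, chr3:50497101-50497549, order number 3079, in intron 2, 43.7 kb from the start, and the match with T2A and C5T lay 88 bp from its midpoint. It is the only site with the consensus among the members that was called at 1 dosage alone. Of basal sites found at that dosage only, 143 of 1892 (7.56%, 95% Wilson interval 6.45 to 8.84) held the consensus, against 2021 of 3431 shared basal sites (58.9%, 57.2 to 60.5); these intervals cover counting error over sites only.

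CACNA2D3 (chr3:54156579-55108584, plus strand, 952 kb), a subunit expressed in brain and the longest member, had 3 basal sites and 2 increased sites. Its locus 2 was called with identical edges at both dosages, chr3:54221651-54222799, 1149 bp, order number 387 at basal and 391 at increased dosage, in intron 2 and 65.6 kb from the start. The exact consensus lay 155 bp from its midpoint. Of the 32-base words of this site 94.7% occur once in the genome, and the most frequent of them occurs 1464 times; 98.1 to 100% of words were unique in the other 10 sites.

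Locus 1 of CACNA2D3 was a narrow site present at both dosages, 349 bp at basal (chr3:54173151-54173499, order number 3128) and 199 bp at increased dosage (chr3:54173201-54173399, order number 3974), in intron 2 and 16.7 kb from the start. It held no match to the consensus within 2 mismatches. It did hold both parts of the consensus without mismatch, in the same order and on the same strand, with 9 bases between them in place of 2. The stretch is shown because it is the only such arrangement without mismatch in the members' called sites, with the parts in capitals:
CACNA2D3 locus 1, chr3:54173351-54173372, plus strand: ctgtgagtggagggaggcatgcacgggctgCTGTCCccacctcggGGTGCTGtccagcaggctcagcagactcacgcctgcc
Among basal sites without the consensus, 29 of 3159 (0.918%, 0.640 to 1.32) held the parts at this distance without mismatch, and among increased sites 29 of 2930 (0.990%, 0.690 to 1.42). In control windows as wide as the sites, shifted by 10 kb in both directions, the same arrangement was found in 0 of 6318 and 0 of 5860, which allows a share of up to 0.0475% and 0.0512%. It was thus rare in the lists and rarer still beside them.

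Locus 3 of CACNA2D3 was called at the basal dosage only, 249 bp at chr3:54929801-54930049, order number 4780, in intron 25 and 773 kb from the start. It also lies in an intron of the antisense long non-coding gene CACNA2D3-AS1, 5.36 kb from the start of that gene. It held no consensus, and 89.8% of the way down its list it is the last of the members' basal sites by order number.

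CACNA2D4 (chr12:1901129-2027832, minus strand, 127 kb), the subunit of photoreceptor synapses, had 1 site at each dosage, at the same place in intron 26. The basal site was 1249 bp wide, chr12:1939851-1941099, order number 92, with 58 wider sites in the list. The increased site was 999 bp wide, chr12:1939901-1940899, order number 132, with 208 wider sites. These are the lowest order numbers of any member site in either list. The site sits about 87.4 kb from the CACNA2D4 start and overlaps a coding exon of LRTM2 (chr12:1929433-1945919, plus strand), a gene for a leucine-rich repeat membrane protein that is nested in CACNA2D4 on the other strand. The element itself lies in that coding exon, 51 bp from the basal and 24 bp from the increased midpoint, and the midpoint is 11.0 kb from the LRTM2 gene start and 3.75 kb (basal) or 3.67 kb (increased) from its nearest transcript start. The position alone does not say which of the 2 genes the site belongs to.

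**Figure D2:**
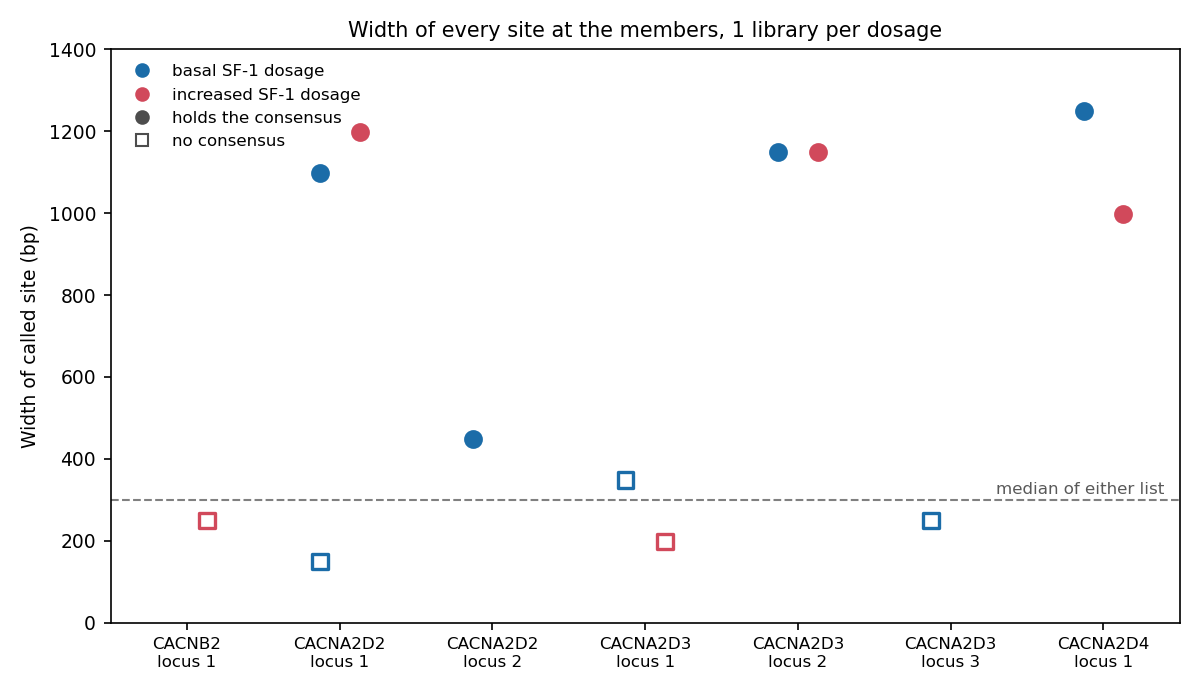
Width in bp of each called site at the 7 loci (blue, basal; red, increased; 1 library each); filled circles hold the consensus and open squares do not, and the dashed line is the median of 299 bp. The 6 sites between 999 and 1249 bp all hold the consensus, and the 5 squares and the basal-only circle of 449 bp lie far below them. These 6 are CACNA2D2 locus 1, CACNA2D3 locus 2 and CACNA2D4 locus 1, each drawn once per dosage.

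The 6 sites of 999 bp or more were CACNA2D2 locus 1, CACNA2D3 locus 2 and CACNA2D4 locus 1, each called at both dosages. Each locus held the consensus and is counted once per dosage, so the 6 are not separate observations. The 6 narrower sites were mixed. The narrow sites of CACNA2D3 locus 1 (349 and 199 bp) and the 149 bp site of CACNA2D2 locus 1 were shared without holding the consensus, and the 449 bp site of CACNA2D2 locus 2 held it without being shared. At the basal dosage 5 of 7 sites overlapped an increased site by at least 1 bp, against 64.5% of the whole list, and at the increased dosage 4 of 5 overlapped a basal site, against 67.9%. The consensus was held by 4 of 7 basal sites, against 40.7% of the list (39.3 to 42.0), and by 3 of 5 increased sites, against 42.1% (40.7 to 43.4). With so few sites these shares lie too near the background to set the members apart. In the control windows, 0 of 14 basal and 0 of 10 increased windows of the members held the consensus, and 1.79% and 1.80% of all windows did. Among sites of at least 1000 bp, 178 of 204 basal sites (87.3%, 82.0 to 91.2) and 176 of 208 increased sites (84.6%, 79.1 to 88.9) held the consensus. All sites of that width were shared with the other dosage. The sites of CACNA2D2, CACNA2D3 and CACNA2D4 of at least 1000 bp were thus like other wide sites in both respects. The increased CACNA2D4 site, at 999 bp, fell just below this width.

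**Figure D3:**
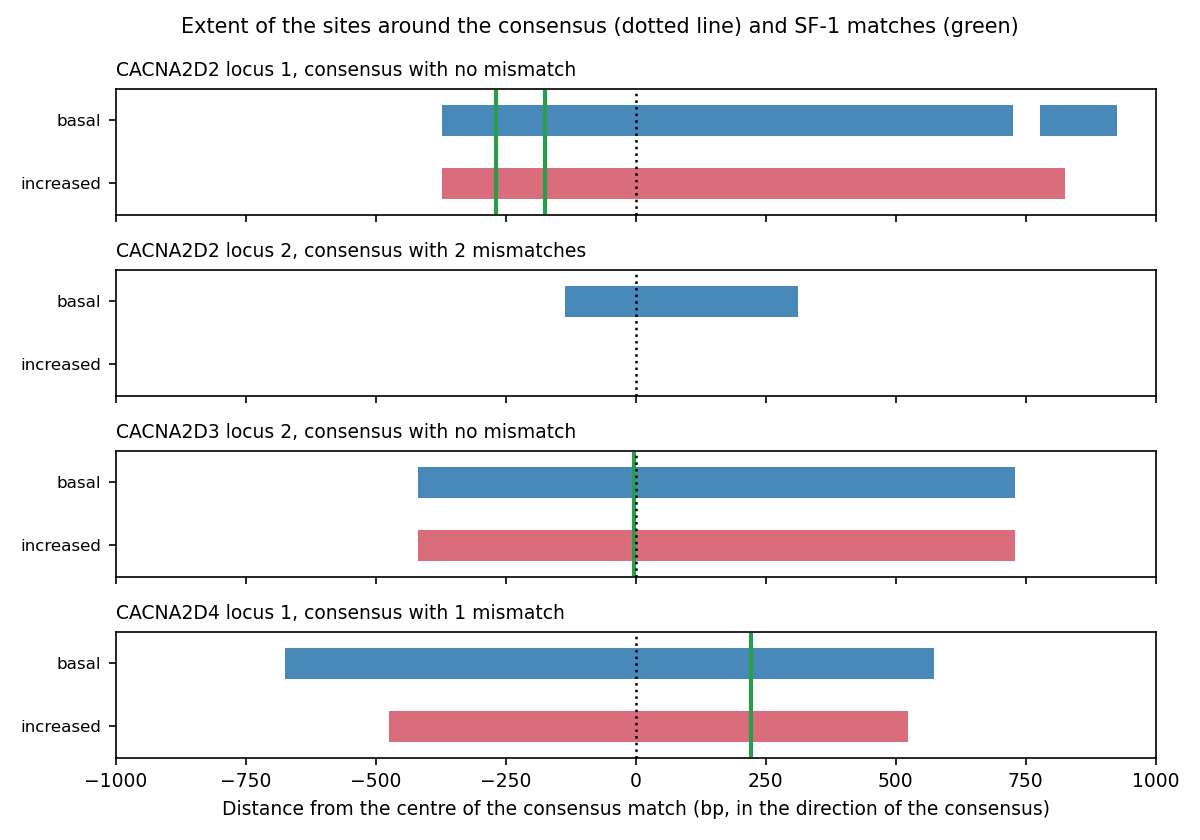
Extent of the called sites (blue, basal; red, increased) in bp around the centre of the consensus match (dotted line) at the 4 loci that hold it, drawn in the direction of the consensus; green lines are SF-1 matches. The basal and increased bars end on the same base at both edges for CACNA2D3 locus 2 and at one edge for CACNA2D2 locus 1, and CACNA2D2 locus 2 has no bar at the increased dosage.

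All 12 sites lay inside a gene, in introns of the member's canonical transcript, and none overlapped an exon of the member itself. None lay within 10 kb of the start of its member's canonical transcript, the nearest being the CACNB2 site at 15 kb and the narrow CACNA2D3 site at 16.7 kb. Counted from the nearest of all annotated transcript starts of the member, the wide CACNA2D3 site was the closest, with its midpoint at -9.17 kb (upstream). Of the 4 loci with the consensus, those of CACNA2D2 and CACNA2D3 lay in intron 2 or 3, and that of CACNA2D4 in intron 26. The promoters of the members were also searched, 250 bases before to 50 bases after the start, in the RefSeq table of GRCh38.p14, which held 17 entries for 7 of the 8 genes (not CACNA2D4). The consensus with at most 2 mismatches was found in 0 of these 17, and in 714 of all 35116 promoters of that length (2.03%). With 17 entries and so low a share, a count of 0 does not set the members apart. On hg19, matches with 2 mismatches lay near the canonical start of CACNB1 (0.0710 kb, in exon 1) and of CACNB4 (-0.569 kb). Neither was in a called site.

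Matches to the SF-1 consensus, CAAGGTCA, CAAGGCCA or CAAGGACA without mismatch on either strand, were found in 3 basal and 3 increased sites, the wide ones of CACNA2D2, CACNA2D3 and CACNA2D4. Such a match was held by 11.4% of all basal and 11.5% of all increased sites, by 6.62% and 7.11% of the control windows, and by 29.4% (23.6 to 36.0) and 26.0% (20.5 to 32.3) of sites of at least 1000 bp, so longer sequence held it more often. The CACNA2D2 site held CAAGGTCA at 2 places, which 4 of 5323 basal and 2 of 5059 increased sites did. Most sites of these lists are far narrower, with a median of 299 bp, and the same count among sites of at least 1000 bp was not made. The 2 places are shown with the 8 bases in capitals:
CACNA2D2 locus 1, chr3:50443048-50443055, minus strand: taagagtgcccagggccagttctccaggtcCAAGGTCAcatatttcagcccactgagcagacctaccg
CACNA2D2 locus 1, chr3:50443143-50443150, plus strand: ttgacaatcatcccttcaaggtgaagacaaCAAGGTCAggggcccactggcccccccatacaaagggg
The CAAGGACA of CACNA2D3, at chr3:54222379-54222386 on the plus strand, lies wholly inside the RE1 element printed above and is the same bases read on the other strand. The CAAGGCCA of CACNA2D4, at chr12:1940198-1940205 on the minus strand, lies outside its RE1 element. A match of these letters is a description of the sequence and says nothing of SF-1 at these places.

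The reverse question is which consensus matches at the members were left without a site. In the whole genome 816 places match the consensus without mismatch, and 75.6% of them lay in a called site of either dosage. The members hold 2 of these places, in CACNA2D2 and CACNA2D3, and both lay in a site at both dosages. Of the 8057 places with 1 mismatch 12.6% lay in a site, and at the members 1 of 13 did, the CACNA2D4 element. Of the 87405 places with 2 mismatches 0.980% lay in a site, and at the members 1 of 94 did, CACNA2D2 locus 2. The beta genes hold 0 places without mismatch, 2 with 1 mismatch and 24 with 2, none of them in a site. The alpha2delta genes hold 2, 11 and 70. The members' counts were thus near the genome-wide share in each class, and exact elements were absent from the 4 beta genes, from CACNA2D1 and also from CACNA2D4, which had a site at both dosages.

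The places with 1 mismatch that were not called at the beta genes and CACNA2D1 are shown for comparison with the called ones, with the 15 bases in capitals.
CACNB2 intron 2, chr10:18667865-18667879, plus strand: ccagggCTGTTCTAGGTGCTGggggcc
CACNB2 intron 3, chr10:18758231-18758245, minus strand: atggcgATGTCCATGGTGCTGaccttg
CACNA2D1 intron 5, chr7:81759149-81759163, plus strand: aagtgtTTGTCCTTGGTGCTGtcatat
Those of CACNB2 carry C5T and C1A, and that of CACNA2D1 carries C1T. Genome-wide, places whose only mismatch was C5T lay in a site in 8.49% of cases, C1A in 2.26% and C1T in 18.5%. The G12C of CACNA2D4 stood at the other end, with 54.3% in a site. Other uncalled places at the members carry substitutions with higher shares than those of CACNB2 and CACNA2D1. These are G15A within 10 kb of CACNA2D4 (chr12:1897055-1897069, 39.5%) and G9A in CACNA2D2 (chr3:50404654-50404668 and chr3:50477485-50477499, 20.5%). Position 12 as a whole had the highest share of the 13 fixed positions, 349 of 698 places (50%), and position 10 the lowest, 2 of 685 (0.292%). CACNA2D3 holds a place with G10A in intron 31, chr3:55024195-55024209, that was in no site.

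**Figure D4:**
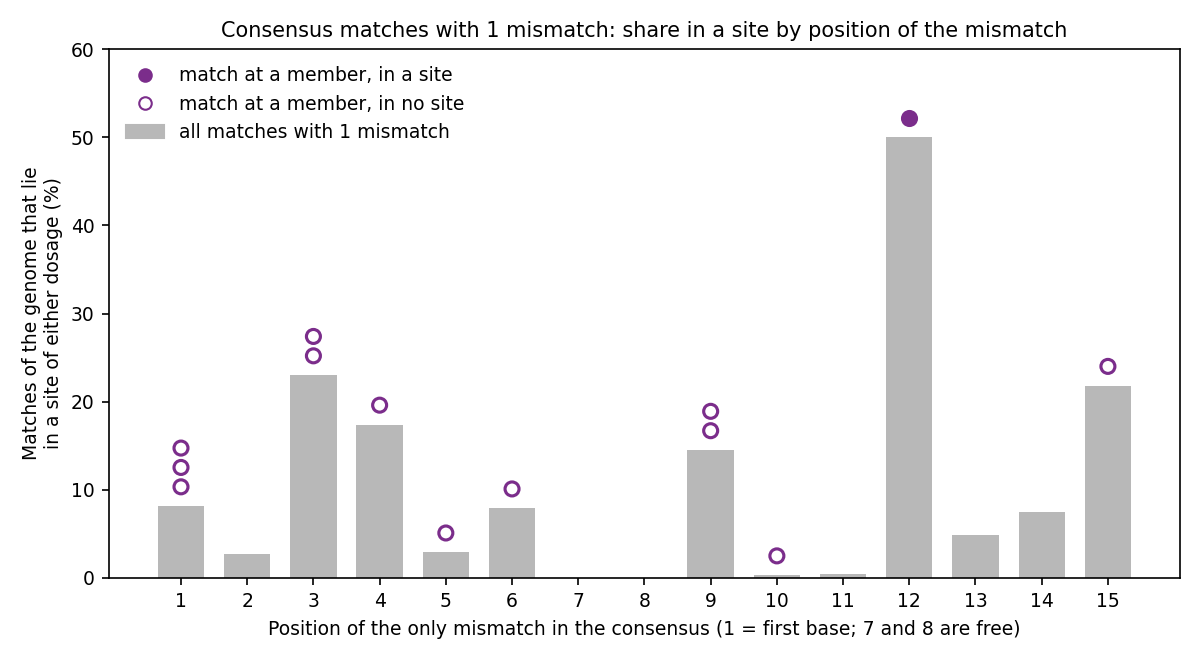
Share in percent of all genome places with exactly 1 mismatch to the consensus that lie in a site of either dosage, by position of the mismatch (grey bars; positions 7 and 8 are free). Circles above the bars are the 13 such places at the members; the only filled one, in a site, stands at position 12, where the bar is highest at 50%, and the 12 open ones stand at positions 1 to 15 with lower bars.

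The base after the consensus also went with being called. Of exact places followed by A, 451 of 490 (92.0%) lay in a site, and of those followed by T, 16 of 72 (22.2%). For places with 1 mismatch the shares were 32.7% before A and 2.48% before T. All 4 occupied elements of the members were followed by A, whereas the uncalled places printed above were followed by G, A and T. The CACNB2 place with C1A thus had the A and held no site, and the same was true of the CACNA2D3 place with G10A. The next base was not counted for places with 2 mismatches.

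Gene length was set beside the counts because long genes hold more sites. Genes of at least 500 kb, such as CACNA2D3, had a site in 66.4% of cases at the basal and 64.2% at the increased dosage, and genes of 100 to 250 kb, such as CACNA2D2 and CACNA2D4, in 23.7% at both. At least 3 sites, as at CACNA2D2 and CACNA2D3 at the basal dosage, were found at 221 genes (1.10%), and at 1.85% of genes of 100 to 250 kb and 20.4% of genes of 500 kb or more. With sites within 500 bp merged CACNA2D2 has 2 basal sites, and at least 2 were found at 648 genes (3.21%) and at 6.09% of genes of 100 to 250 kb, counted without merging. For CACNA2D3 44 other protein-coding genes had the same counts of 3 basal and 2 increased sites, and the nearest in length were NTM (966 kb), NRG3 (1112 kb) and GRID1 (767 kb), which encode a neural adhesion protein, a neuregulin and a delta glutamate receptor. Their widest sites were 749, 699 and 949 bp at the basal dosage, below the 1149 bp of CACNA2D3.

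**Figure D5:**
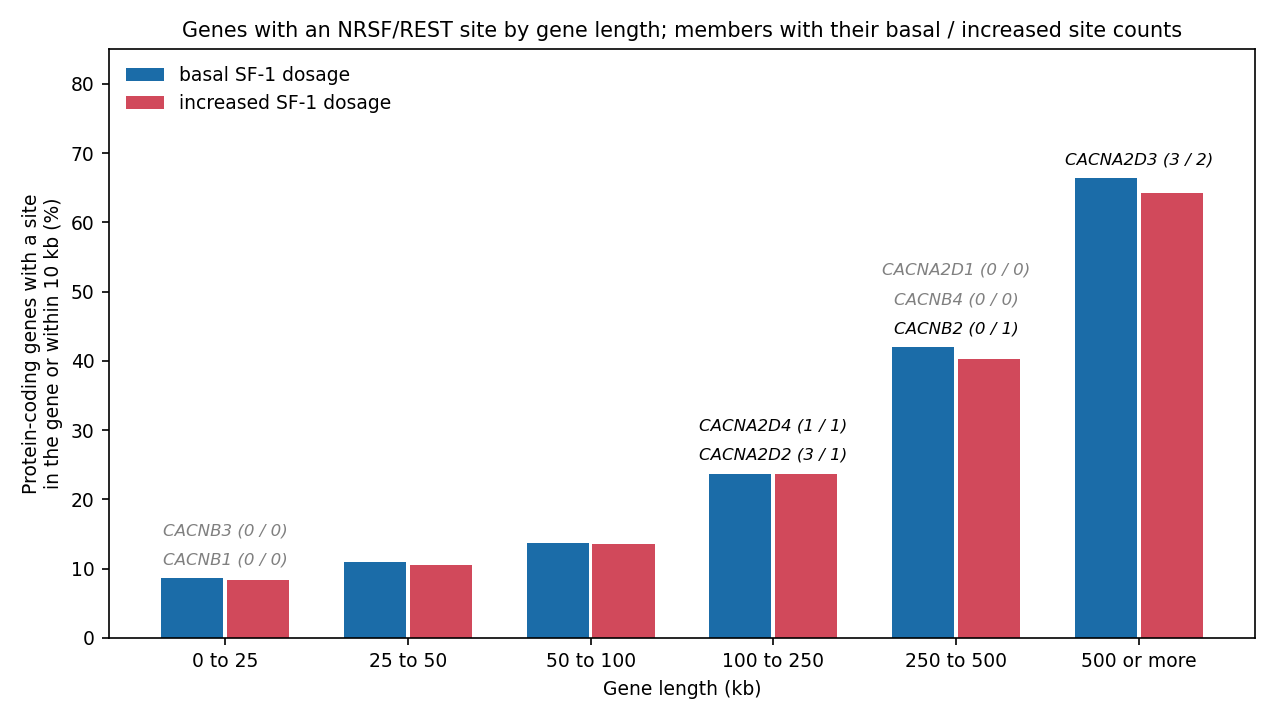
Percentage of protein-coding genes with a site assigned by the 10 kb rule (y axis) by gene length in kb (x axis), basal blue and increased red, with each member above its length class and its basal / increased number of sites. The share rises from 8.58% below 25 kb to 66.4% at 500 kb or more at the basal dosage; CACNA2D1, CACNB1, CACNB3 and CACNB4, in grey, have 0 sites.

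Just outside the 10 kb limit, the nearest site was that of CACNA2D2, 21.5 kb upstream of the gene. It was called at both dosages, 949 bp at chr3:50563201-50564149 (order number 673) and 1099 bp at chr3:50563151-50564249 (order number 784), with the consensus at 1 mismatch, and CACNA2D2 is the nearest protein-coding gene to it. For CACNB3 the next site was 77.0 kb away, called at the basal dosage only, and for CACNA2D4 130 kb away, at the increased dosage. CACNA2D3 had its next site at 151 kb, CACNB2 at 278 kb, CACNA2D1 at 293 kb, CACNB1 at 308 kb and CACNB4 at 808 kb. None of the sites assigned to the members lay in the 10 kb flanks.

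The genes named for alpha1 and gamma subunits of calcium channels were counted by the same rule, under which 10.5% of all protein-coding genes had a site at both dosages. The gamma list was taken by gene name only. Whether each gamma product is a subunit of calcium channels or of other receptors was not examined. This share was 6.73% under 25 kb, 7.89% at 25 to 50 kb and 9.37% at 50 to 100 kb. It was 17.2% at 100 to 250 kb, 32.6% at 250 to 500 kb and 57.4% at 500 kb or more. Of the 10 alpha1 genes, which encode the pore, 6 had a site at both dosages, with 16 basal and 15 increased sites in all, among them CACNA1A (6 and 4) and CACNA1B (5 and 4), and the alpha1 genes are 28.3 to 727 kb long. Of the 8 gamma genes, 4 had a site at both dosages, CACNG2, CACNG3, CACNG5 and CACNG7, with 7 and 8 sites in all, and the gamma genes are 12.2 to 143 kb long. Of the families named for channel subunits, the beta genes had the fewest sites, 0 and 1, but they are 4 genes against 8 gamma and 10 alpha1 genes. The beta genes had a median length of 145 kb, against 47.2 kb for the gamma genes, yet CACNB1 (24.2 kb) and CACNB3 (15.1 kb) are under 25 kb. With 4 to 10 genes per family these are counts only.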

How the data were processed

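NRSF/REST ChIP-seq site lists were analysed for 1 library at the basal and 1 at the increased SF-1 dosage. Per the labels and methods, the authors processed reads with CASAVA 1.6 and aligned them to hg19 with ELAND. The peak caller (CisGenome) and its settings are stated for SF-1 sites only, and whether the input DNA served as control is not given for these lists in the sources used here. The deposited lists give position, an order number and a score of 1000 for every site. A list keeps only what passed the authors' threshold, so a weak site may be missing at 1 dosage, and reads in repeats may have been lost.

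Positions count from 1. Sites were placed on GENCODE release 44 on hg19 and shared at 1 bp overlap. Motifs were searched in the hg19 sequence on both strands and in control windows as wide as each site, shifted by 10 kb both ways, with Python 3.11.15, numpy 2.4.6, scipy 1.17.1, pysam 0.24.0 and matplotlib 3.10.9. Intervals are Wilson 95%, and a count of 0 allows 3 counts. In checks with known answers, 2662 of 2662 and 2530 of 2530 called sites were found to overlap shifted copies of themselves. Sites planted inside or outside 10 kb of the members' higher-coordinate ends were rightly assigned or left out in 40 of 40 cases. In random sequence 200 of 200 planted consensus and 200 of 200 split matches were found. False overlaps and the other flank were not checked.

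All members were named with every site and the next site beyond 10 kb, and for the member with most sites the 3 genes with like counts nearest in length. Other genes were named where they overlap a member's site or hold a site in a partner list. The members and lists were chosen with earlier results of these data known. Genome-wide consensus places, shares by mismatch and by next base, 32-base words, the parts 8 or 9 bases apart, paired CAAGGTCA and the RefSeq promoters were examined after the data had been seen. Masked repeat bases were to be counted, but the reference sequence used marks none. Alternatives were other distances, overlaps, mismatches, list thresholds and gene lengths.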

Additional observations from a re-analysis of the deposited data

How the results depend on the processing

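Of the recomputed counts and shares, 29 stayed within 1.5 times the value reported and 7 moved. Keeping the first 50% of each list by order number left 3 basal sites at the members (7 in the whole list), 3 of them shared (5), and 3 increased sites (5), and keeping the widest 50% left 3 increased sites. Allowing no mismatch left 2 basal sites with the consensus (4). Restricting the background to genes of at least 100 kb raised it from 13.9% to 31.2% (basal) and from 13.6% to 30.6% (increased). The number of alpha2delta genes with a site was 3 under every distance and list threshold tried, while the CACNB2 site was lost in the widest and the first 50%, leaving 3 members at the increased dosage (4). Within 50 kb there were 8 basal and 6 increased sites, and merging sites within 500 bp gave 6 and 5. No paired analysis was possible because there is 1 library per dosage. Without read counts, a site called at 1 dosage only may lie just under the threshold in the other library, which was not tested.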

Other observations

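Partner proteins of the 2 subunit families were counted in the same way. RIM and RIM-binding proteins tether calcium channels at the presynaptic release site, and RIM binds beta subunits. The genes counted were RIMS1, RIMS2, RIMS3, RIMS4 and RIMBP2, and no other gene of a RIM-binding protein was counted. Of these, 5 of 5 had sites at both dosages, with 15 basal and 11 increased sites in all. RIMS2 had 6 basal and 2 increased sites, RIMBP2 3 and 3, RIMS4 3 and 2, RIMS3 2 and 2, and RIMS1 1 and 2. The genes are between 45 and 754 kb long, and a site at both dosages was found at 10.5% of all protein-coding genes. By length class this share was 7.89% at 25 to 50 kb (the class of RIMS3) and 9.37% at 50 to 100 kb (RIMS4). It was 32.6% at 250 to 500 kb (RIMBP2) and 57.4% at 500 kb or more (RIMS1 and RIMS2). Whether the count of 5 differs from that of genes of like length was not tested. RIMBP2, RIMS3 and RIMS4 had sites with the consensus at both dosages, and RIMS1 and RIMS2 had none with it.

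The RGK GTPases, small proteins that bind beta subunits and lower calcium current, had a site at 0 of 4 genes at the basal and 1 of 4 at the increased dosage. That site, at RRAD, was 299 bp wide and held the consensus. The thrombospondins, secreted proteins of which some bind alpha2delta, had 0 sites at 5 genes at both dosages. These genes are short, with medians of 7.03 kb for the RGK GTPases and 18.4 kb for the thrombospondins, against 372 kb for the RIM and RIM-binding proteins. By the same rule 13.9% of all protein-coding genes had a basal and 13.6% an increased site. Among those under 25 kb the shares were 8.58% and 8.31%. The RGK genes are all under 25 kb, whereas THBS2 (38.3 kb) and THBS4 (92.0 kb) are longer. So few sites are what most genes of such length showed.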
